A study of Mus musculus with 4 samples.

Results

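The homeostatic microglia identity genes are 7 genes by which resident microglia of the mouse brain are recognised: Sall1, Tmem119, Fcrls, Siglech, Selplg, Gpr34 and Olfml3. They were taken by symbol from the 55403 features of the deposited matrices, and all 7 were found and passed the low-count filter of every fit. Their levels were read in 1546 microglia-like nuclei of 29616 kept nuclei from mouse hippocampus. Microglia-like nuclei were defined with 15 marker genes that include none of the 7, and the 7 genes also took no part in the clustering.

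Single-nucleus RNA-seq had been run on pooled frozen hippocampus of 3 genotypes, with 4 libraries in all. WT was represented by 1 library. PS19 was represented by 2 libraries, labelled replicate 1 and 2; these mice, of a mixed B6;C3 background, carry the Prnp-MAPT*P301S transgene, human 1N4R tau with the P301S change under the prion promoter, which drives it in neurons and other brain cells. TG_PS19 was represented by 1 library of PS19 mice that also carry the SORLA-Rosa26 transgene, in which a CMV/β-actin promoter, active in most tissues and not in microglia alone, drives the sorting receptor SORLA. The animals were littermates from crosses of the PS19 and SORLA lines, tissue was pooled within a genotype, and the labels give no age, sex or number of animals. Whether the PS19 libraries came from separate animals is not stated either, so p-values measure only the spread between these libraries, which may be technical.

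Microglia are the resident macrophages of the brain. Sall1 is a zinc-finger transcription factor that maintains the microglial programme. The products of Siglech, Fcrls, Gpr34, Selplg and Tmem119 sit in the plasma membrane, and that of Olfml3 is secreted. Expression of such genes depends on signals of healthy brain tissue, among them TGF-beta, and in mouse models of amyloid or tau pathology microglia are known to lower them while raising Clec7a, Itgax, Lpl and Axl, genes of the disease-associated state.

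The libraries held 4643 to 12762 barcodes and 20064025 to 48670533 UMIs, and 4467 to 11458 nuclei were kept. Libraries shared at most 0.474% of the barcodes of the smaller one. Human MAPT gave 0 UMIs in WT and 12.6 to 18.7 UMIs per 1000000 UMIs (CPM) in the other libraries, and human SORL1 gave 65.1 CPM in TG_PS19 and at most 0.349 CPM elsewhere, as the labels have it. Microglia-like nuclei numbered 589 in WT, 260 and 285 in the PS19 libraries and 412 in TG_PS19, with medians of 1605, 2205, 2572 and 1645.5 UMIs per nucleus. Different clusters held most of them: cluster 7 held 564 of the WT and 398 of the TG_PS19 nuclei, and cluster 14 held 197 and 215 of the PS19 nuclei. The TG_PS19 library stood apart in that its microglia came from both sexes, with 232 nuclei holding UMIs of Xist and none of Y-linked genes and 81 the reverse. Xist stood at 1568 CPM there and at no more than 15.04 CPM in the other libraries. The fits of the 7 members between TG_PS19 and another genotype are therefore also given for its nuclei with Y-linked UMIs only. The split, the shares of nuclei and the results on other gene lists use TG_PS19 nuclei of both sexes.

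The 7 genes lie on chromosomes 3, 5, 7, 8 and X of mouse build GRCm38 (GENCODE release M21). Fcrls spans chr3:87250758-87263738 and Olfml3 chr3:103722222-103738001, both on the minus strand. Siglech spans chr7:55768178-55778925 on the plus strand and Sall1 chr8:89027235-89044162 on the minus strand. Tmem119 (chr5:113793729-113800516) and Selplg (chr5:113818536-113832644) are near neighbours on the minus strand, 18019 bases apart, with 1 annotated gene between them, Gm19931. Gpr34 (chrX:13632089-13640858, plus strand) lies inside Cask, which is transcribed from the other strand; the 3′ kit used marks strand, but the counting setting is not given in the sources used here.

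RefSeq promoter windows (GRCm38.p6, 250 bases before to 50 after a transcription start) were available for 4 of the 7 genes, Fcrls, Siglech, Olfml3 and Sall1, in 6 windows. They were searched on both strands for the PU box GAGGAA, the core recognised by the myeloid factor PU.1, for the AP-1 site TGANTCA and for the SMAD palindrome GTCTAGAC; no motif holds another. The PU box was found in the windows of Fcrls and Siglech, and it is shown here, in capitals, because these are the members on which several comparisons turn. The Fcrls stretch is chr3:87263651-87263680 on the minus strand, with the motif 144 bases before the RefSeq start, inside an intron of 1 of 2 annotated transcripts. The Siglech stretch is chr7:55768168-55768197 on the plus strand, with the motif read from the opposite strand as TTCCTC from 4 bases before the start, in an exon of 1 of 8 annotated transcripts.
Fcrls: caagtctgtaaaGAGGAAggacgtttgctt
Siglech: tgctgtccctagTTCCTCttctgtgagctg
The same letters occur in 28.3% of 32851 mouse promoter windows, so the 2 of 6 windows are near what all promoters hold. The AP-1 site (7.81% of all windows) and the SMAD palindrome (0.213%) were in none of the 6 windows.

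Within the hippocampus the 7 genes were concentrated in microglia to different degrees. Over 11 cell classes with at least 50 nuclei in each library, the share of the summed class levels (CPM) that lay in microglia, averaged over the 4 libraries, was 97.8% for Siglech, 96.1% for Selplg, 94.1% for Fcrls, 85.7% for Tmem119, 85.2% for Gpr34, 67.0% for Sall1 and 66.0% for Olfml3. Siglech, a sialic acid-binding lectin that signals through DAP12, and Fcrls, an Fc receptor-like scavenger protein, had no second class above 11.5 CPM in any library. Because the classes come from clusters of the same nuclei, these shares are a description with no test.

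**Figure D1:**
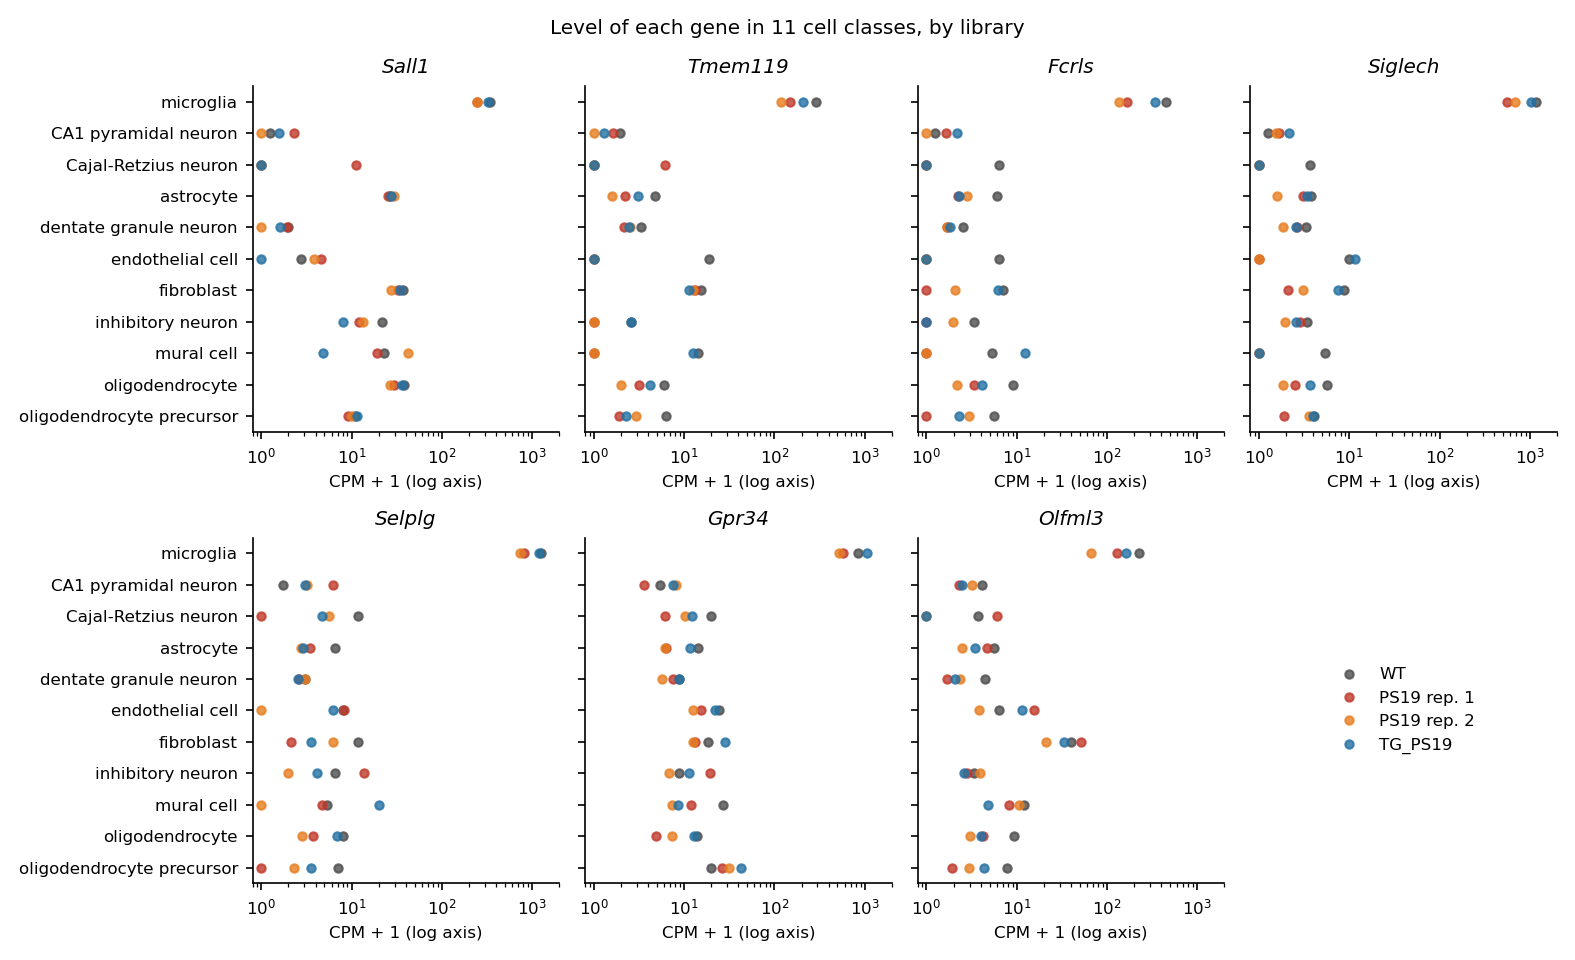
Level of each of the 7 genes (CPM + 1, log axis) in 11 cell classes, with 1 point per library. Microglia lie to the right of every other class for each gene, and Sall1 in oligodendrocytes, astrocytes and fibroblasts, Olfml3 in fibroblasts and Gpr34 in oligodendrocyte precursors lie above the remaining classes in most libraries.

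Sall1 was the member with the widest second expression. It stood at 25.7 to 37.4 CPM in oligodendrocytes, 24.4 to 28.3 CPM in astrocytes and 26.2 to 36.1 CPM in fibroblasts, against 243 to 337 CPM in microglia. Mural cells were at 21.9 CPM in WT and at 18.3 and 41.4 CPM in PS19 replicates 1 and 2, the last being the second-highest class of its library. Free RNA in droplet data gives all classes a low share of nuclei with a UMI, so the other members in the same nuclei serve as the background. A Sall1 UMI was seen in 6.89% of the 3249 WT oligodendrocytes (exact 95% interval 6.05 to 7.82), whereas the other 6 members were seen in 0.862 to 2.65% of them. In the PS19 libraries the Sall1 shares were 6.33% and 7.41% and in TG_PS19 6.72%, and the highest share among the other members, that of Gpr34, was 0.935%, 2.002% and 2.34%. In dentate granule and CA1 neurons Sall1 had 0 to 11 UMIs per library and at most 1.29 CPM. The 0 UMIs in CA1 neurons of PS19 replicate 2 allow up to 1.64 CPM. Inhibitory neurons had more Sall1, at 20.5 CPM in WT (26 UMIs) and 7.131 CPM in TG_PS19 (9 UMIs). In PS19 replicates 1 and 2 they were at 10.98 CPM (6 UMIs) and 12.48 CPM (13 UMIs). Gpr34 in the same nuclei was lower in WT (7.883 CPM) and PS19 replicate 2 (5.758 CPM). It was higher than Sall1 in PS19 replicate 1 (18.3 CPM) and TG_PS19 (10.3 CPM).

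Olfml3, a secreted olfactomedin-like protein, had fibroblasts as its second class in every library, at 39.3 CPM in WT, 50.4 and 19.9 CPM in the PS19 pair and 32.4 CPM in TG_PS19. Tmem119, a transmembrane protein used to mark resident microglia, had 14.2, 12.3, 11.5 and 10.4 CPM in the fibroblasts of the same libraries. Gpr34, a receptor for lysophosphatidylserine, was second highest in oligodendrocyte precursors in 3 of 4 libraries, at 25.2, 30.8 and 41.9 CPM in PS19 replicates 1 and 2 and TG_PS19; in WT it was at 18.9 CPM there, below the 26.3 CPM of mural cells. These levels outside the microglia were not tested between libraries.

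A pair of small immune groups outside the microglia differed in which members they held. A cluster of 47 nuclei led by Mrc1 (2947 CPM), which the marker rule left unnamed, had Siglech at 382 CPM (34 UMIs), Fcrls at 349 CPM (31 UMIs), Gpr34 at 270 CPM (24 UMIs) and Selplg at 180 CPM (16 UMIs), but only 1 UMI each of Tmem119 and Olfml3. Sall1 had 6 UMIs there, from 2 nuclei. The cluster also held the microglial markers P2ry12 at 461 CPM and Cx3cr1 at 439 CPM, and whether its nuclei hold RNA of microglia was not tested. The 43 T cell-like nuclei had Selplg, which encodes the selectin ligand PSGL-1 of leukocytes, at 498 CPM with a UMI in 69.8% of them, and 0 to 2 UMIs of every other member. The nuclei of both groups were pooled over the libraries.

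In PS19 microglia all 7 genes had a negative fitted change against WT microglia. Of these 6 were called lower, all but Sall1. The fitted fold was largest for Fcrls, Olfml3 and Tmem119 and smallest for Sall1. Across all genes tested, 6.79% of 10670 were called in either direction and 3.13% were called lower, at an adjusted p under 0.05 (edgeR's quasi-likelihood test, Benjamini-Hochberg over all genes). The median log2 fold change was -0.93 over the members and 0.01 over all genes. WT has a single library and is assumed to vary like the PS19 pair, which leaves 1 residual degree of freedom beside the spread shared across genes.

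**Figure D2:**
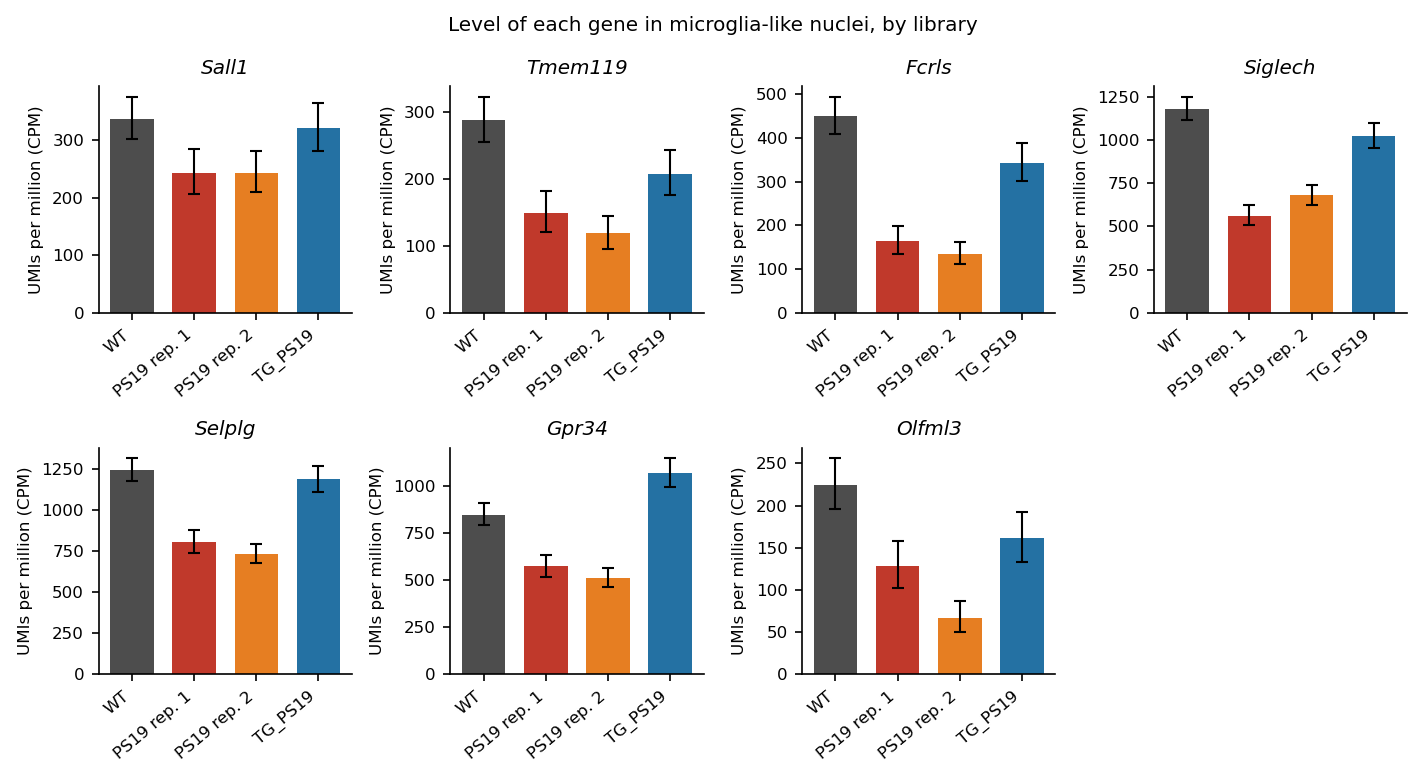
Level of each gene in microglia-like nuclei (CPM), with 1 bar per library and exact 95% Poisson intervals for counting error only. For all 7 genes both PS19 bars lie below the WT and TG_PS19 bars, and Gpr34 is the gene whose TG_PS19 bar lies above WT.

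Sall1 was at 337 CPM in WT (336 UMIs), 243 and 243 CPM in the PS19 libraries and 321 CPM in TG_PS19. The PS19 libraries agreed closely and both were lower than the other 2, whose counting intervals overlapped. The log2 fold change in PS19 was -0.47 ± 0.17 (SE), with an adjusted p of 0.069 that missed the threshold (edgeR). The call depended on the setting: Sall1 was called lower with library totals (adjusted p = 0.046, 8.07% of all genes called), after thinning to 1000 UMIs (0.034, 6.39%) and with a robust prior (0.048, 7.78%), and over the other edgeR settings its adjusted p was 0.059 to 0.63.

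Siglech was at 1181 CPM in WT, 562 and 680 CPM in the PS19 pair and 1024 CPM in TG_PS19. Neither PS19 library reached the level of the other genotypes. It fell by 0.93 ± 0.16 on the log2 scale in PS19 (edgeR, adjusted p = 1.6e-05).

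Fcrls was at 450 CPM in WT, 165 and 135 CPM in the PS19 pair and 342 CPM in TG_PS19. The counting intervals of the PS19 pair overlapped each other and none of the rest. It fell by 1.60 ± 0.17 on the log2 scale (edgeR, adjusted p = 9.6e-11).

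Selplg was at 1246 CPM in WT, 808 and 734 CPM in the PS19 pair and 1189 CPM in TG_PS19, so that WT and TG_PS19 lay together above the PS19 pair. It fell by 0.70 ± 0.16 on the log2 scale (edgeR, adjusted p = 0.0015). Within cluster 7 Selplg was at 1272 CPM in WT and at 1349 and 1181 CPM in PS19, with overlapping counting intervals. Gpr34 was at 850 CPM in WT, 576 and 513 CPM in the PS19 pair and 1073 CPM in TG_PS19. It was the member for which TG_PS19 was highest, and its PS19 pair was again lowest; Gpr34 is X-linked and the TG_PS19 nuclei came from both sexes. It fell by 0.65 ± 0.16 on the log2 scale in PS19 (edgeR, adjusted p = 0.0037). Within cluster 7 Gpr34 was at 872 CPM in WT and at 698 and 677 CPM in PS19.

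Tmem119 was at 288 CPM in WT, 149 and 119 CPM in the PS19 pair and 207 CPM in TG_PS19, with the TG_PS19 value between the others. It fell by 1.12 ± 0.18 on the log2 scale in PS19 (edgeR, adjusted p = 4.9e-06). Olfml3 was at 225 CPM in WT, 128 and 66.2 CPM in the PS19 pair and 161 CPM in TG_PS19. The PS19 libraries differed from each other for this gene beyond their counting intervals, 102 to 158 CPM against 49.6 to 86.5 CPM. It fell by 1.25 ± 0.21 on the log2 scale (edgeR, adjusted p = 1.9e-05), and the fitted change was -1.76 without PS19 replicate 1 and -0.83 without replicate 2, where no test is possible.

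DESeq2, which called 0.590% of all genes here, called Fcrls and Siglech only, and with likely doublets kept the calls were Fcrls, Olfml3 and Tmem119, in a fit that called 5.87% of all genes and 3.66% lower. All 7 members kept a negative sign in every alternative fit of this comparison.

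In TG_PS19 microglia all 7 genes had a positive fitted change against PS19, and 6 were called higher, again all but Sall1. This comparison shares the PS19 libraries with the last one and is not independent of it. Of all genes, 7.95% were called in either direction and 4.00% were called higher. The log2 fold changes were 1.29 ± 0.18 for Fcrls (adjusted p = 1.9e-07), 1.07 ± 0.16 for Gpr34 (adjusted p = 7.7e-07), 0.85 ± 0.23 for Olfml3, 0.80 ± 0.16 for Siglech, 0.73 ± 0.20 for Tmem119 and 0.71 ± 0.16 for Selplg, all from edgeR. Sall1 was at 0.49 ± 0.17 with an adjusted p of 0.072. The median was 0.80 over the members and -0.01 over all genes. Most microglia of the groups lay in different clusters. Within cluster 7, Fcrls was at 352 CPM in TG_PS19 against 237 and 257.5 CPM in PS19. Gpr34 was at 1084 against 698 and 677 CPM and Sall1 at 321 against 298 and 302 CPM. The TG_PS19 value lay between the PS19 values for Siglech (1029 against 949 and 1114) and Selplg (1208 against 1349 and 1181). It did so too for Tmem119 (212 against 298 and 207) and Olfml3 (162.5 against 190 and 106). These levels were not tested.

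With TG_PS19 restricted to its 81 nuclei with Y-linked UMIs only, Gpr34 (0.89) and Siglech (0.87) were called and the other members were at 0.42 to 0.83 without a call, in a fit that called 3.85% of all genes and 1.84% higher. DESeq2, on all nuclei, called Fcrls, Gpr34 and Siglech, and 0.806% of all genes. With doublets kept, Fcrls and Gpr34 were called, with 6.08% of all genes called and 3.80% higher. Without PS19 replicate 2, Olfml3 was at 0.43.

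Between TG_PS19 and WT none of the 7 genes was called by edgeR (adjusted p from 0.578 to 0.997) or by DESeq2, in a comparison in which edgeR called 0.534% of all genes; both groups have a single library. At an unadjusted p under 0.05 edgeR gave 1 member, Gpr34, at 0.42 ± 0.18 on the log2 scale. Tmem119 (-0.39 ± 0.20), Olfml3 (-0.40 ± 0.24) and Fcrls (-0.31 ± 0.19) were on the lower side, and Siglech (-0.13 ± 0.18), Selplg (0.01 ± 0.18) and Sall1 (0.01 ± 0.19) near 0. The counting intervals of TG_PS19 and WT overlapped for Sall1 and Selplg and for no other member. With TG_PS19 restricted to its nuclei with Y-linked UMIs only, the fitted changes ran from -0.77 to 0.24, and 6 of 7 were negative. Their median was -0.10 there, against -0.08 over all genes.

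**Figure D3:**
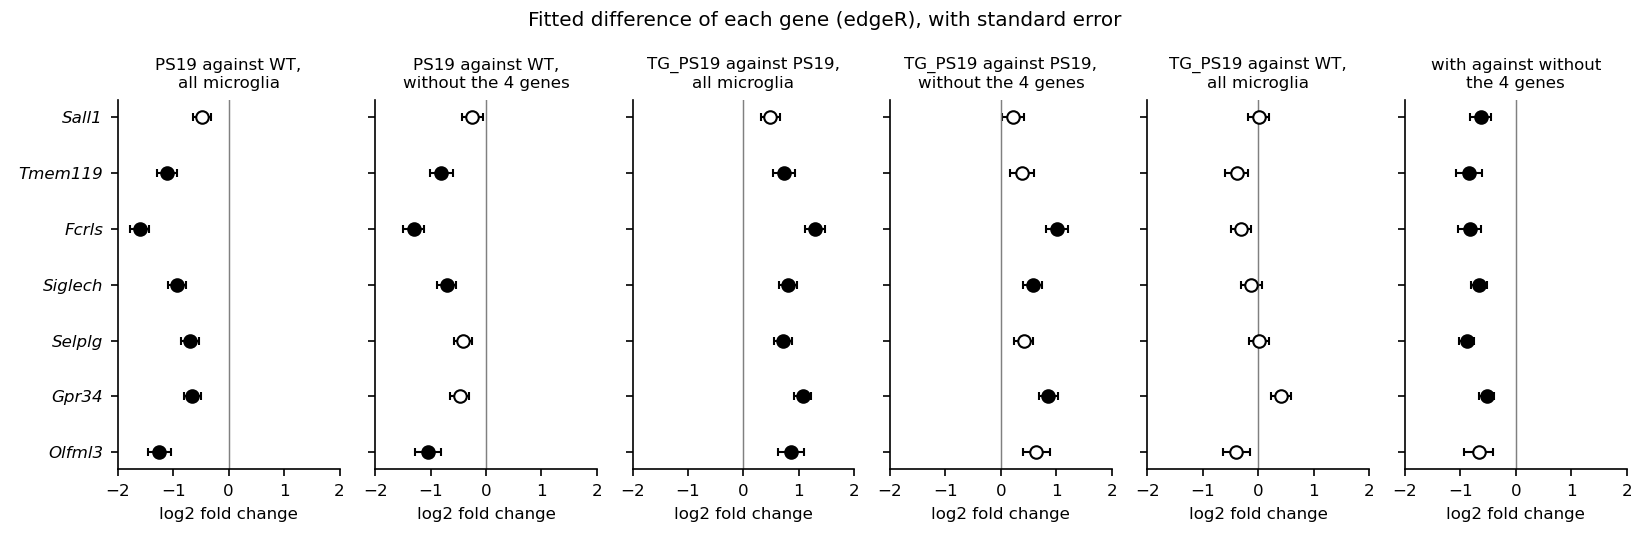
Fitted log2 fold change of each gene with its standard error (edgeR) in 6 comparisons; filled points have an adjusted p under 0.05. All points of the PS19 comparison with WT and of the split by Clec7a, Itgax, Lpl and Axl lie below 0, those of TG_PS19 against PS19 lie above 0, and none is filled for TG_PS19 against WT.

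Markers of other cells in these nuclei moved with genotype as well. Of the 12 markers of border-associated macrophages, Cd163, Lyve1, Cd209f, Cd209a and Clec10a were at 0 in the microglia of all 4 libraries and Mrc1 was at 9 UMIs or fewer; the summed list was at 203 CPM in WT, 149 and 157 CPM in the PS19 pair and 197 CPM in TG_PS19, most of it Stab1, which was called lower in PS19 than in WT (-0.67 ± 0.20). Ms4a7, of the same list, was at 26.2 and 27.5 CPM in the PS19 pair with 0 UMIs in WT and TG_PS19 and was called higher in PS19. Of 6 neutrophil markers Csf3r alone was detected, at 305, 588, 600 and 394 CPM, and it was called higher in PS19 than in WT (0.96 ± 0.17). The 10 T cell markers summed to 6.16 to 14.0 CPM and the 10 monocyte markers to 38.2 to 78.5 CPM; none of the 3 monocyte markers tested was called by edgeR. Oligodendrocyte markers summed to 1024 CPM in WT, 661 and 729 CPM in the PS19 pair and 1040 CPM in TG_PS19 microglia, astrocyte markers to 839, 588, 557 and 782 CPM, and dentate granule neuron markers to 1394, 1030, 1108 and 1488 CPM. A setting that left out nuclei with any macrophage marker UMI removed 147 WT, 72 and 85 PS19 and 116 TG_PS19 microglia. Stab1 gave 187 of the 202 UMIs of this list in WT and 142 of 144 in TG_PS19. In the PS19 pair it gave 73 of 97 and 99 of 126. The setting thus mainly removed nuclei with Stab1 UMIs, and a part of macrophages in these differences was not tested. With these nuclei left out, the same 6 members were called lower in PS19 than in WT. That fit called 3.56% of all genes, and 1.60% lower. In TG_PS19 against PS19 the same setting called 5 members, all of the 6 but Olfml3 (1.05, adjusted p = 0.054), with 4.02% of all genes called and 2.10% higher. The part of the oligodendrocyte, astrocyte and neuronal RNA in these differences was not tested.

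Each nucleus was then placed by whether it held at least 1 UMI of Clec7a, Itgax, Lpl or Axl. Such nuclei made up 3.23% of WT microglia (19 of 589, exact 95% interval 1.95 to 4.99), 40% (104 of 260) and 34.4% (98 of 285) of PS19 microglia and 3.16% of TG_PS19 microglia (13 of 412, 1.69 to 5.34). After thinning every nucleus to 1000 UMIs the shares were 2.69, 26.2, 19.7 and 1.26%, with 31, 4, 1 and 16 shallower nuclei left out. These 4 genes define the split, and their own difference across it is no result. Nuclei with such UMIs were deeper in 3 libraries, with medians of 1985 against 1586 UMIs in WT and 2516 against 2043.5 and 2905 against 2457 in PS19, and about equal in TG_PS19 (1629 against 1648).

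Against nuclei without them from the same library, nuclei with UMIs of the 4 genes had a negative fitted change for all 7 members. Of these 6 were called lower, all but Olfml3. Of 7400 genes tested, 3.04% were called in either direction and 1.62% were called lower. Selplg was at 1020 CPM in PS19 replicate 1 nuclei without the UMIs and at 547 CPM in those with them, and at 895 and 469 CPM in replicate 2; in WT it was at 1266 and 768 CPM and in TG_PS19 at 1196 and 963 CPM. The level with the UMIs was the lower one in all 4 libraries. It fell by 0.88 ± 0.14 on the log2 scale (edgeR with library as a block, adjusted p = 2.7e-08).

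Tmem119 was at 201 and 86.0 CPM in PS19 replicate 1 without and with the UMIs and at 140 and 82.6 CPM in replicate 2. It fell by 0.84 ± 0.23 on the log2 scale (adjusted p = 0.015). Fcrls was at 223 and 92.9 CPM in replicate 1 and at 152 and 106 CPM in replicate 2, and fell by 0.83 ± 0.21 (adjusted p = 0.0051). Siglech fell by 0.66 ± 0.14 (adjusted p = 2.0e-04), Sall1 by 0.63 ± 0.19 (adjusted p = 0.030) and Gpr34 by 0.52 ± 0.14 (adjusted p = 0.010), all on the log2 scale in edgeR. Olfml3 was at -0.67 ± 0.26 and missed the threshold (adjusted p = 0.19).

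**Figure D4:**
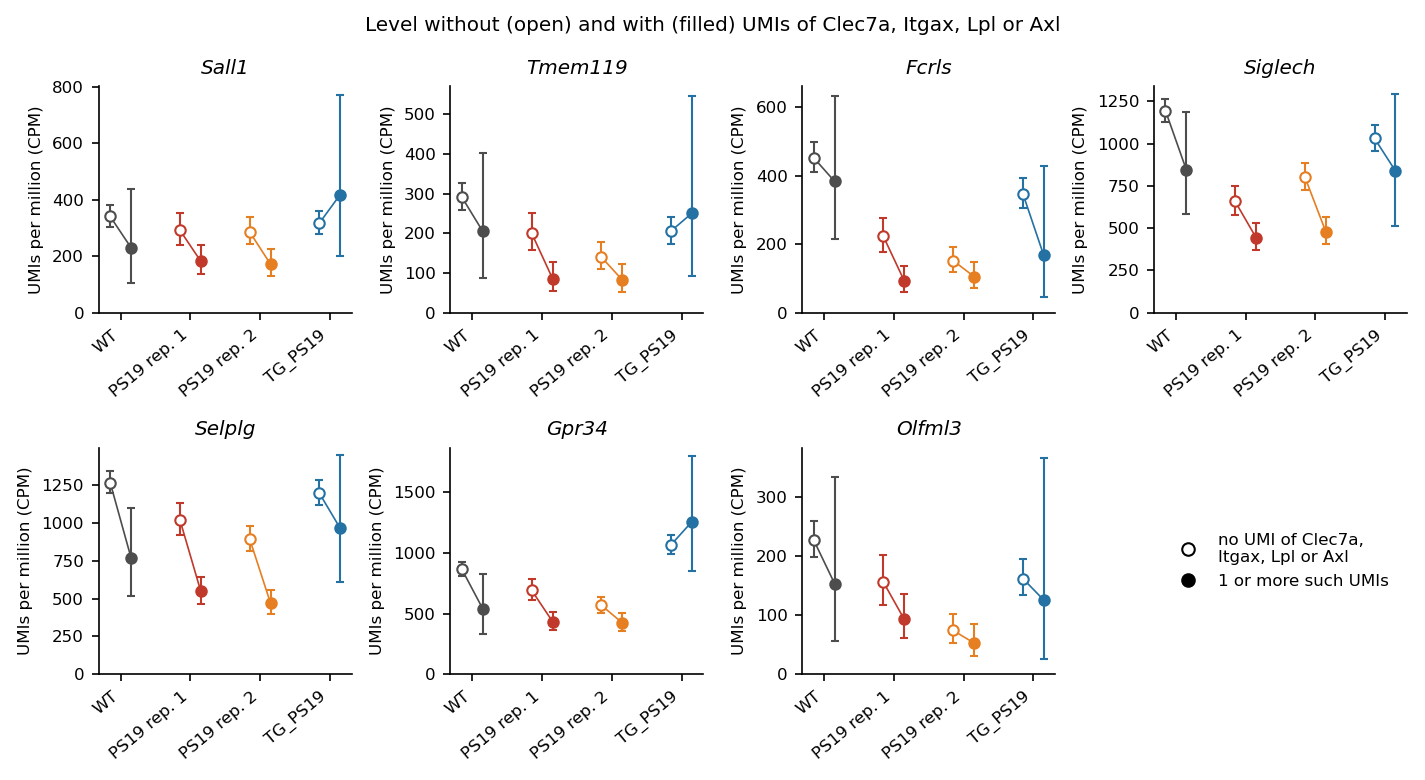
Level of each gene (CPM) in microglia without (open) and with (filled) UMIs of Clec7a, Itgax, Lpl or Axl, by library, with exact 95% Poisson intervals for counting error only. In both PS19 libraries and in WT the filled point lies below the open one for all 7 genes, and in TG_PS19, where the filled points rest on 13 nuclei, this holds for 4 of 7.

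The number of members called in the split varied with the way it was made. With the PS19 libraries alone the same 6 members were called, and 4.10% of all genes. Without PS19 replicate 1 Selplg and Siglech were called (0.941% of all genes), without replicate 2 Selplg (0.872%), and after thinning to 1000 UMIs Selplg, at -1.15 (1.35%). DESeq2 called Selplg and Siglech, and 0.784% of all genes. The with-minus-without effect was compared between PS19 and the other libraries by an interaction term. None of the 7 differences, from -0.57 ± 0.51 for Tmem119 to 0.07 ± 0.61 for Olfml3, had an unadjusted p under 0.05 in edgeR. That fit called 0.122% of all genes, and DESeq2 called none of the members. The median difference was -0.13 over the members and 0.22 over all genes. With library totals these medians were -0.36 and -0.007, and all 7 members were negative. The nuclei with the UMIs numbered 19 in WT and 13 in TG_PS19, and the standard errors of 0.27 to 0.61 leave room for differences of the size of the effect itself.

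Among nuclei without any UMI of the 4 genes, all 7 members had a negative fitted change in PS19 against WT. Of these 4 were called lower, with 3.29% of 9843 genes called in either direction and 1.60% called lower. Fcrls was at 453 CPM in WT and 223 and 152 CPM in PS19, and fell by 1.31 ± 0.19 on the log2 scale (edgeR, adjusted p = 5.3e-09). Olfml3 was at 228 CPM in WT and 156 and 74.2 CPM in PS19, and fell by 1.05 ± 0.23 (adjusted p = 4.2e-04). Tmem119 fell by 0.81 ± 0.20 (adjusted p = 0.0037) and Siglech by 0.71 ± 0.17 (adjusted p = 0.0012). For these 4 genes both PS19 libraries were below WT. The change in Olfml3 was -1.61 without PS19 replicate 1 and -0.56 without replicate 2, with no test. Most WT and PS19 microglia lay in different clusters, and the groups were closer within cluster 7, over its nuclei with and without the UMIs (564 in WT, 63 and 70 in PS19): Tmem119 was at 294 CPM in WT and 298 and 207 CPM in PS19, Siglech at 1208 against 949 and 1114 CPM, Olfml3 at 231 against 190 and 106 CPM, and Fcrls at 456 against 237 and 257.5 CPM. In that cluster the counting intervals of both PS19 libraries lay below that of WT for Fcrls and for none of the other 3 genes, and Tmem119 in PS19 replicate 1 was not below WT.

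The remaining members were at -0.47 ± 0.17 (Gpr34), -0.42 ± 0.17 (Selplg) and -0.25 ± 0.19 (Sall1), with adjusted p of 0.12, 0.19 and 0.73 in edgeR. Sall1 was at 341 CPM in WT and at 293 and 287 CPM in these PS19 nuclei. DESeq2 called none of the 7 here and 0.122% of all genes. A nucleus without such a UMI may still express the genes at a level not caught at its depth, so this group is not free of them.

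Against PS19, all 7 members had a positive fitted change in TG_PS19 nuclei without the UMIs. Of these 3 were called higher, with 4.03% of genes called in either direction and 2.20% called higher. Fcrls was at 1.01 ± 0.20 (adjusted p = 6.5e-05), Gpr34 at 0.85 ± 0.17 (adjusted p = 5.2e-05) and Siglech at 0.57 ± 0.17 (adjusted p = 0.023) on the log2 scale in edgeR. Within cluster 7, over its nuclei with and without the UMIs, Fcrls and Gpr34 in TG_PS19 were above both PS19 libraries. Siglech at 1029 CPM lay between them (949 and 1114 CPM). Gpr34 alone was called, at 0.70, when TG_PS19 was restricted to nuclei with Y-linked UMIs only, with 2.34% of all genes called and 1.16% higher, and DESeq2 called none of the 7 and 0.264% of all genes.

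Single nuclei carried fewer of the 7 genes in PS19. After thinning to 1000 UMIs, a microglial nucleus showed UMIs of 2.97 members on average in WT, 1.88 and 1.86 in PS19 and 2.81 in TG_PS19. None of the 7 was seen in 1.61% of WT nuclei (exact 95% interval 0.740 to 3.04), 15.6% (11.4 to 20.7) and 13.03% (9.34 to 17.5) of PS19 nuclei and 2.02% (0.876 to 3.94) of TG_PS19 nuclei; unthinned, the shares were 0.340, 4.23, 3.16 and 1.21%. In PS19 the nuclei with UMIs of the 4 genes lacked all 7 members in 20.4 and 24.5% of cases and those without in 12.4 and 6.99%. By gene, the thinned share of nuclei with a Fcrls UMI was 33.2% in WT, 10.9 and 12.7% in PS19 and 26.8% in TG_PS19, and for Gpr34 it was 55.4, 37.9, 40.1 and 67.7%. These shares describe the nuclei of 4 libraries, and the intervals cover counting error only.

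**Figure D5:**
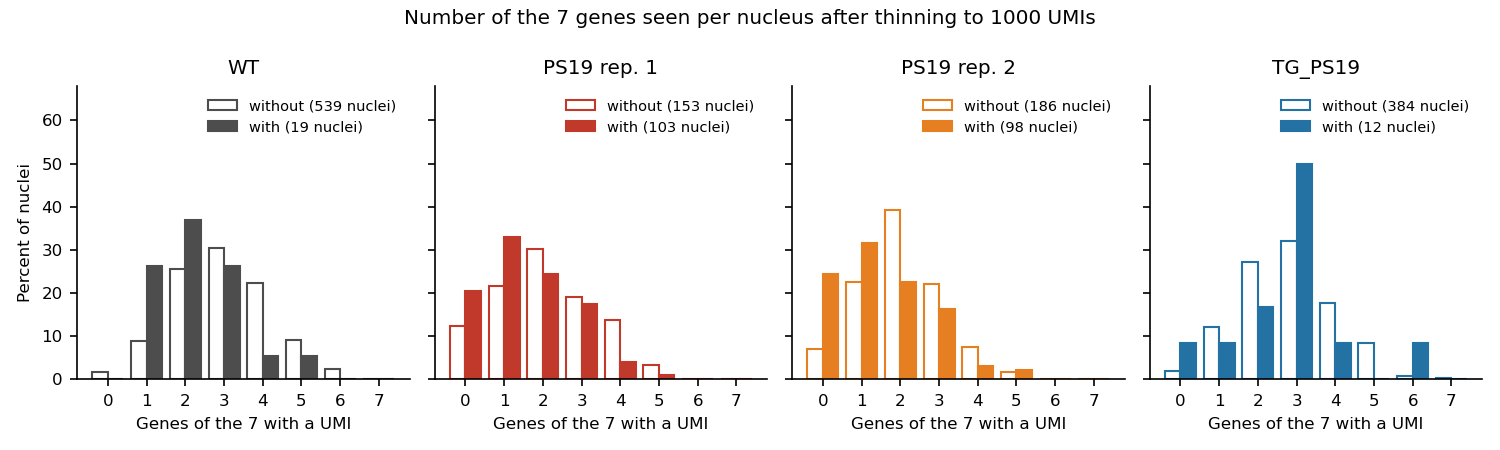
Percent of microglia-like nuclei in which 0 to 7 of the genes had a UMI after thinning to 1000 UMIs, for nuclei without (open bars) and with (filled bars) UMIs of Clec7a, Itgax, Lpl or Axl. The PS19 distributions sit to the left of WT and TG_PS19, with 20.4 and 24.5% of the nuclei with such UMIs at 0; the filled bars of WT and TG_PS19 rest on 19 and 12 nuclei.

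The 37 other genes of the homeostatic list, of which 36 were tested, gave 17 calls lower and 0 higher in PS19 against WT. Of all genes 3.13% were called lower there. The median was -0.50 over the list and 0.01 over all genes. The lowest adjusted p were those of Lrba, a vesicle trafficking protein (-1.16 ± 0.16), Slc2a5, the fructose transporter (-1.52 ± 0.22), Sparc, a matrix protein (-1.0 ± 0.16), and Cst3, the protease inhibitor cystatin C (-1.15 ± 0.18), all by edgeR. In TG_PS19 against PS19 20 of the 36 were called higher, where 4.00% of all genes were called higher. The median was 0.55 over the list and -0.01 over all genes. These calls were led by Cst3 (1.33 ± 0.18), Crybb1 (2.04 ± 0.30), Ecscr (1.73 ± 0.32) and Slco2b1 (0.85 ± 0.16). In TG_PS19 against WT 1 was called, Ltc4s, lower, where 0.534% of all genes were called in either direction. In the split 18 of 35 were called lower and 0 higher, where 1.62% of all genes were called lower. Among those lower were Cst3 (-1.11 ± 0.11), the purinergic receptor P2ry12 (-0.86 ± 0.13) and Slc2a5 (-2.01 ± 0.35). The median was -0.53 over the list and -0.04 over all genes.

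Of the 22 other disease-associated genes 14 were called higher and 0 lower in PS19 against WT, where 3.66% of all genes were called higher. A positive fitted value was found for 20 of the 22 (median 0.93). The calls were led by Lyz2 (2.67 ± 0.33), Gpnmb, Ank (1.41 ± 0.20) and Csf1 (2.44 ± 0.36). In TG_PS19 against PS19 14 were called lower and 0 higher (median -1.23), where 3.95% of all genes were called lower. In the split 6 of 20 were called higher, against 1.42% of all genes, with Apoe at 0.98 ± 0.12 and Ank at 1.32 ± 0.19.

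Among 20 tested regulators of myeloid identity 4 were called higher and 1 lower in PS19 against WT, where 3.66% of all genes were called higher and 3.13% lower. Among those higher were Mitf, a factor of lysosomal and phagocytic genes (1.21 ± 0.17), Runx1 (0.54 ± 0.16) and Bhlhe41 (0.78 ± 0.25), and Ets1 was lower (-0.72 ± 0.22). In TG_PS19 against PS19 3 were called lower, among them Mitf (-0.92 ± 0.17) and Irf8 (-0.75 ± 0.19), where 3.95% of all genes were called lower. In the split, with 19 tested, Maf was called lower (-0.67 ± 0.14) and Mitf higher (0.54 ± 0.13). Of all genes 1.62% were called lower and 1.42% higher in the split. Of 13 tested genes of the TGF-beta axis, Tgfb1 (-0.56 ± 0.18) and the co-receptor Eng (-1.10 ± 0.31) were called lower in PS19 against WT. Tgfbr2 was called lower in TG_PS19 against PS19 (-0.59 ± 0.17). Of all genes, 3.13% and 3.95% were called lower in these comparisons. None of 12 was called in the split by edgeR, where 3.04% of all genes were called, and 1 had an unadjusted p under 0.05.

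Genes whose levels ran most like the mean of the 7 members were looked up among 7527 genes. Over 44 class-by-library sums, which share libraries and are spread mainly by microglia against all other classes, the closest were Gm43775, Csf1r, Itgam, Cd37 and Clec4a2, with Pearson's r of 0.98 each, followed by Wdfy4, Ccr6, Gm38843, Slc2a5 and Arhgap45. Csf1r and Itgam are among the marker genes by which the microglia class was named. Over the 8 library-by-split sums of microglia the closest were Pmepa1, a TGF-beta-induced membrane protein (0.96), Myo18b (0.95), Sparc (0.95), Elmo1 (0.94) and Cst3 (0.94). Pmepa1 was at 671 CPM in WT, 340 and 359 CPM in the PS19 pair and 666 CPM in TG_PS19 microglia. These correlations are a description over points that share libraries and depth, and carry no test.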

How the data were processed

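Nuclei from pooled hippocampus were counted with a 10x Genomics 3′ kit, and the deposited values are raw UMI counts per gene and barcode made by the authors; the submitters' processing notes name Cell Ranger 7.1.0 and GRCm38. A nucleus needed 500 UMIs and 300 genes or more and a mitochondrial share of no more than 5%, and likely doublets (a scrublet-style score, 0.8% per 1000 nuclei, 3.70 to 10.2% of a library) were left out. Graph clusters (30 components of 2000 variable genes, leidenalg 0.10.2, resolution 1.0) were named from marker lists. The variable genes left out the 7 members, Clec7a, Itgax, Lpl and Axl. The members and lists were chosen with earlier results of these data known.

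UMIs were summed per library and, for the split, per library and presence of the 4 genes. They were tested with edgeR 4.0.16 (R 4.3.3; TMM factors, filterByExpr, quasi-likelihood F test, Benjamini-Hochberg over all genes tested, threshold 0.05); DESeq2 1.42.0 was an alternative. A check for a repeated deposit of 1 library found the PS19 pair to differ beyond counting noise (chi-square over 11494 genes, 1.77 per degree of freedom), which separate preparations of the same tissue can also give; they are counted as 2 samples because the labels list them as replicates. CPM is UMIs per 1000000 UMIs of the nuclei summed; 0 UMIs allow up to 3 counts. Intervals are exact and cover counting error only. On simulated counts the PS19 against WT fit (10066 genes) recovered 16.0% of 2-fold (1 log2 unit) and 79.6% of 4-fold (2 log2 units) changes, and called 0.010% of unchanged genes. These counts were drawn with the same fixed spread for every gene and library, so they do not cover libraries that differ by sex or preparation. The text names the 7 members always, and of each gene list up to 4 called genes per direction with the lowest adjusted p; some genes the rule selects are not reported here.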

Additional observations from a re-analysis of the deposited data

Results flagged for a closer look

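In TG_PS19, 3 members were higher in nuclei with UMIs of Clec7a, Itgax, Lpl or Axl than in nuclei without them, opposite to both PS19 libraries. On the scale of log2(CPM + 10), Sall1 differed by 0.39, Tmem119 by 0.27 and Gpr34 by 0.24. The values with the UMIs rest on 13 nuclei and on 10, 6 and 30 UMIs of these genes. In PS19 replicates 1 and 2 the same differences were -0.65 and -0.71 for Sall1, -1.13 and -0.70 for Tmem119 and -0.66 and -0.42 for Gpr34. The difference between TG_PS19 alone and PS19 was not tested. Over WT and TG_PS19 combined it was -0.35 ± 0.42, -0.57 ± 0.51 and -0.09 ± 0.28 in edgeR, none with an unadjusted p under 0.05. The median of that combined difference over all genes was 0.22.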

How the results depend on the processing

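In the comparisons of PS19 with WT and of TG_PS19 with PS19, and in the split, every member kept its direction in every alternative run; the number of members called moved. For PS19 against WT it was 6, and 7 (Sall1 added) with library totals, after thinning and with a robust prior, 3 with doublets kept and 2 by DESeq2. For TG_PS19 against PS19 it was 6, and 5 after thinning (6.71% of all genes called, 3.54% higher), without nuclei with macrophage marker UMIs and with adjusted residual degrees of freedom (6.15%, 3.01% higher). It was 3 by DESeq2, 2 with doublets kept and 2 with Y-linked nuclei only. In nuclei without UMIs of the 4 genes, PS19 against WT gave 4, and 5 after thinning (4.15% of all genes called), 0 by DESeq2 and 1 with doublets kept (6.33%). TG_PS19 against PS19 gave 3, and 4 after thinning (4.79%), 2 with library totals (4.10%) and with no low-count filter (1.34%), 0 by DESeq2, 0 with doublets kept (7.02%) and 1 with Y-linked nuclei only. The split gave 6, and 5 with adjusted residual degrees of freedom (2.55% of all genes called), 4 with no low-count filter (0.633%), 4 with at least 2 UMIs required (2.55%), 2 by DESeq2, 2 without Axl (1.54%), 1 after thinning to 1000 UMIs, 1 without nuclei with macrophage marker UMIs (1.77%), 0 with no library block (0.616%), and 1 to 2 with a PS19 replicate left out. Over all genes, DESeq2 called 63 against 725 by edgeR for PS19 against WT, 86 against 848 for TG_PS19 against PS19 and 58 against 225 in the split. Leaving out a PS19 replicate left no residual degree of freedom between genotypes, so these fits gave values with no test, with member medians of -0.79 and -0.83 for PS19 against WT and 0.89 and 0.65 for TG_PS19 against PS19.

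In TG_PS19 against WT, where no member was called, Sall1 went to -0.075 with library totals, -0.31 after thinning and -0.046 with Y-linked nuclei only, and Selplg to -0.072 with library totals and -0.10 with Y-linked nuclei only. The interaction, also without a call, changed sign for Fcrls (0.41 after thinning; -0.40 to 0.35 with a PS19 replicate left out), Siglech (0.21 after thinning; 0.084 to 0.24), Selplg (0.024 to 0.039), Gpr34 (-0.053 to 0.21) and Olfml3 (-0.14 with library totals). Over all genes the interaction median was 0.41 after thinning, 0.33 and 0.32 without PS19 replicates 1 and 2, and -0.007 with library totals. The causes of these changes were not tested.

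The share of microglia with UMIs of the 4 genes was 0.849% in WT, 21.9 and 19.7% in PS19 and 0% in TG_PS19 with at least 2 UMIs required (0 of 412 nuclei). Without Axl it was 1.70% in WT and 28.5 and 26.7% in PS19, and after thinning 26.2 and 19.7% in PS19 and 1.26% in TG_PS19. The median over members of the share in microglia was 87.7% in PS19 replicate 2 and 87.3% in TG_PS19 taken alone. No paired analysis was possible because WT and TG_PS19 have 1 library each and their replicate numbers are not in the labels. Chosen after the data were seen were the prior, degrees-of-freedom and interaction alternatives, the macrophage-marker setting of the split, the doublet and resolution settings in nuclei without the 4 genes, the Y-linked setting outside TG_PS19 against PS19, and, for TG_PS19 against WT, the thinning, macrophage-marker, doublet and resolution settings. Nuclei per library (260 to 589 microglia) limit the precision most for Olfml3 and Tmem119, with 53 and 95 UMIs in PS19 replicate 2.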

Other observations

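Among nuclei without any UMI of Clec7a, Itgax, Lpl or Axl, a minority of the other homeostatic genes was called between genotypes. In PS19 against WT 7 of 35 were called lower and 0 higher by edgeR, where 1.60% of all genes were called lower. The median was -0.26 over the list and 0.01 over all genes. The calls were led by Cst3 (-0.85 ± 0.16), Lrba (-0.95 ± 0.18), Sparc (-0.77 ± 0.17) and Slc2a5 (-0.92 ± 0.24). In TG_PS19 against PS19 9 of 35 were called higher and 0 lower (median 0.39), where 2.20% of all genes were called higher. Those calls were led by Cst3 (1.01 ± 0.16), Crybb1 (1.67 ± 0.35), Slco2b1 (0.68 ± 0.17) and Gpr165 (2.90 ± 0.79). Of the regulators, Mitf was higher in these PS19 nuclei than in WT (1.00 ± 0.18) and lower in TG_PS19 than in PS19 (-0.70 ± 0.18); both comparisons share the PS19 libraries.

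Myo18b, a gene of an unconventional myosin and one of the 5 closest to the members over the library-by-split sums, was at 124 CPM in WT, 24.6 and 18.7 CPM in the PS19 pair and 138 CPM in TG_PS19 microglia. In PS19 nuclei with UMIs of the 4 genes it was at 1 and 0 UMIs.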
